A study of Pinus pinaster with 14 samples.

Results

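The vascular tissue of the pine seedling root was set against the cortex around it, in the zone labelled root and in the zone labelled developing root. The members are 4 of the 14 libraries of the series, chosen by their tissue labels and paired by zone: root vascular with root cortex, and developing root vascular with developing root cortex. The seedlings were maritime pine, Pinus pinaster, of the Oria provenance, 1 month old, grown in soil in a culture chamber with no treatment or mutation that sets the groups apart. Each tissue was cut out of frozen sections by laser microdissection, its RNA was amplified as cDNA with a protocol made for conifers (CRA+), and the product was read by pyrosequencing (Roche GS-FLX+) as 1 library. The labels give 1 library for each tissue and zone, do not say how many seedlings went into it or whether libraries share seedlings, and do not say how far from the tip either zone lay. The root is taken here as the older zone. The 2 vascular libraries are therefore not repeats of one tissue. A paired p-value over both zones sets the mean tissue difference against how far it varies between zones. No repeat of a tissue enters it.

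The vascular cylinder at the centre of a root holds the xylem, which carries water and minerals to the shoot, and the phloem, which brings sugars down from the needles. The cortex is the ground tissue between the outer cell layers and the endodermis, and is known for storage and for the radial passage of water and ions towards the cylinder. Close to the tip both tissues are still growing and differentiating out of the root meristem. In older conifer roots, xylem cells have thick, lignified walls and the outer tissues of the root change with age.

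The deposited table lists transcripts of an assembly by identifier and does not pair them with gene names, so no transcript can be given a function here. For the same reason the labels vascular and cortex could not be checked against marker genes. The values are reads divided by the library's total and by a scaling factor, so 1 read was worth 1.42 in root vascular tissue, 2.96 in root cortex, 1.04 in developing root vascular tissue and 1.56 in developing root cortex. The libraries held 1536389 reads in root vascular tissue, 578781 in root cortex, 684928 in developing root vascular tissue and 531440 in developing root cortex, within a range of 519134 to 1536389 over the series.

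The 2 root-zone libraries were dominated by fewer transcripts than the 2 developing-root libraries. The number of transcripts that together held 50% of the reads was 189 in root vascular tissue, 9 in root cortex, 538 in developing root vascular tissue and 359 in developing root cortex. The 10 most abundant transcripts took 27.0% of the reads in root vascular tissue, 51.4% in root cortex, 10.2% in developing root vascular tissue and 15.0% in developing root cortex. Such concentration was not particular to the older root, since in hypocotyl cortex 41 transcripts held 50% of the reads and the 10 most abundant took 36.7%. Of the 4 read totals, only that of root vascular tissue stood well above the others. The cause of the concentration was not tested. Counts at equal totals, under other scaling and without the most abundant transcripts are given with the results. Each library pools the RNA of the cells cut out, so fewer cells of a type and less RNA per cell cannot be told apart.

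The pair of libraries from the older zone also stood much further apart than the pair from the developing zone. Across the 13677 transcripts that reached a value of 10 in at least 1 of the 4 libraries, Spearman's rank correlation was 0.249 between root vascular tissue and root cortex and 0.700 between developing root vascular tissue and developing root cortex. The root vascular library was little closer to the developing root vascular library, at 0.196, than to the developing root cortex library, at 0.132. The root cortex library stood at 0.264 with developing root cortex and at 0.293 with developing root vascular tissue. With the root meristem library, the correlation was 0.0887 for root vascular tissue, 0.332 for root cortex, 0.738 for developing root vascular tissue and 0.735 for developing root cortex. Both developing libraries were thus closer to the meristem than to either library of the older zone. These correlations run over the same transcripts, which are not independent replicates, and share the assembly and the scaling.

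Transcripts read deeply in 1 tissue were often missing from its partner in the older zone. Of the 1361 transcripts with 200 or more reads in root vascular tissue, 165, or 12.1%, had no read in root cortex. Of the 203 with as many reads in root cortex, 15, or 7.39%, had none in root vascular tissue. In the developing root, 5 of 597 deep vascular transcripts, or 0.838%, had no read in the cortex, and 4 of 433 deep cortex transcripts, or 0.924%, had none in the vascular tissue. Between the zones the gap was one-sided in vascular tissue, since 162 of the 1361 deep root vascular transcripts, or 11.9%, had no read in developing root vascular tissue, and 4 of the 597 deep developing root vascular transcripts, or 0.670%, had none in root vascular tissue. In cortex, 39 of 203 deep root transcripts, or 19.2%, had no read in the developing root, and 25 of 433 deep developing root transcripts, or 5.77%, had none in the root.

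Differences between the tissues were taken on log2(value + 5), a scale that understates the change of low transcripts. The standard deviation of the vascular minus cortex difference over the 13677 transcripts was 2.34 in the root and 1.21 in the developing root, with a median of 0 in both. The median absolute fold between the tissues, on the same scale, was 2.76 in the root and 1.44 in the developing root. A 4-fold difference was used as a rule of size, since with 1 library on each side no test of a single zone can be made. In the root, 2878 transcripts (21.0%) were 4-fold or more higher in vascular tissue and 1993 (14.6%) were 4-fold or more lower there than in cortex. In the developing root the counts were 625 (4.57%) and 598 (4.37%). When each of the 4 libraries was reduced to the smallest total of 531440 reads, the counts were 2917 higher and 2262 lower in root vascular tissue, and 654 higher and 619 lower in developing root vascular tissue. Without the 24 most abundant transcripts they were 3096 and 2102 in the root, and 790 and 629 in the developing root. With quantile normalisation, which gives the libraries one distribution of values, they were 2401 and 2155 in the root, and 684 and 686 in the developing root. With library totals in place of the authors' factors, they were 2109 and 1449 in the root, and 928 and 632 in the developing root. Among these settings the counts of the zones stood closest there. The root count was the larger in each case, but its lean to vascular tissue depended on the size asked for, with 4310 higher and 4328 lower at 2-fold.

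Depth behind these transcripts was uneven. The median number of reads in the higher library was 101.5 for those higher in root vascular tissue, 17 for those higher in root cortex, 37 for those higher in developing root vascular tissue and 31 for those higher in developing root cortex. The lower library had no read at all for 40.3% of the transcripts higher in root vascular tissue and 50.1% of those higher in root cortex. The 95% interval of the ratio of the 2 read counts (exact, from the binomial distribution) excluded equality for every one of the 4-fold transcripts and lay wholly above 2-fold for 88.9% of those higher in root vascular tissue and 96.9% of those higher in root cortex. The transcripts were chosen by a 4-fold difference in these same reads, so the intervals are a description and no separate support for the lists. Such intervals cover counting error only, not the error of cutting, amplifying or repeating a sample.

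The wider spread of the older zone held in each of the 4 abundance groups, and was larger in the more abundant ones. Among transcripts with a mean value under 15 over the 4 libraries, 23.0% were 4-fold apart in the root and 8.68% in the developing root. Among those with a mean over 200, the shares were 54.6% in the root and 10.2% in the developing root. In the root the abundant transcripts also leaned to vascular tissue, with a median difference of 1.66 on the log2 scale above a mean of 200 and of -0.04 below a mean of 15. The groups were set by the mean of the same 4 values, so a high value in root vascular tissue alone can place a transcript in an upper group. The lean and the increase with abundance are thus partly built in, and are a description. In the developing root the median difference stayed at 0.00 at both ends of the range.

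**Figure D1:**
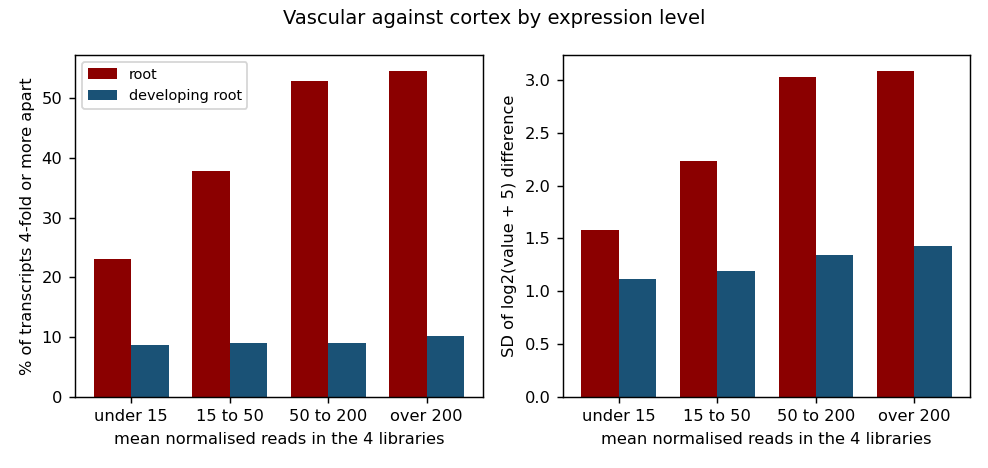
Left, the percent of transcripts that were 4-fold or more apart between vascular tissue and cortex, grouped by mean value in the 4 root libraries, and right, the standard deviation of the vascular minus cortex difference on log2(value + 5), for root and developing root. Root bars are taller in each group and increase with abundance to 54.6% and 3.09, whereas the developing root bars end at 10.2% and 1.43.

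What the zones had in common was a small set, and close to what the sizes of the lists give. Both zones showed a like-signed difference of at least 4-fold for 153 transcripts higher in vascular tissue. These are 5.32% of the root list, where 4.57% of all 13677 transcripts were on the developing root list, and 24.5% of the developing root list, where 21.0% of all were on the root list. For transcripts lower in vascular tissue than in cortex, 52 were at least 4-fold apart in both zones. These are 2.61% of the root list, where 4.37% of all were on the developing root list, and 8.70% of the developing root list, where 14.6% of all were on the root list, so both cortex shares lay below the background.

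Many transcripts could not be shared because they were measured in 1 zone. Of the 13677, 6576 (48.1%) reached a value of 10 in both zones, 4021 only in the root libraries and 3080 only in the developing root libraries. Within the 6576, the shared vascular transcripts were 10.2% of the 1507 on the root list, where 6.05% were on the developing root list, and 38.4% of the 398 on the developing root list, where 22.9% were on the root list. The shared cortex transcripts were 4.57% of the 1139 on the root list, where 3.45% were on the developing root list, and 22.9% of the 227 on the developing root list, where 17.3% were on the root list. Within this group the shares thus lay above the background, more so on the vascular side, and no test was made of them.

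Over all transcripts the tissue differences of the zones followed each other weakly. Spearman's rank correlation between the root and the developing root differences was 0.0433 over the 13677 transcripts, with the same sign in 42.0% and opposite signs in 39.7%. It was 0.314 among the 977 transcripts with a mean value over 200 and 0.00546 among the 5772 with a mean under 15. Low values rest on fewer reads, and the cause of this gap was not tested. A lack of difference was also shared by few, since 1374 of the 6576 transcripts measured in both zones, 20.9%, were under 2-fold in both. Under 2-fold in the root were 29.3% of them, and under 2-fold in the developing root 68.2%.

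**Figure D2:**
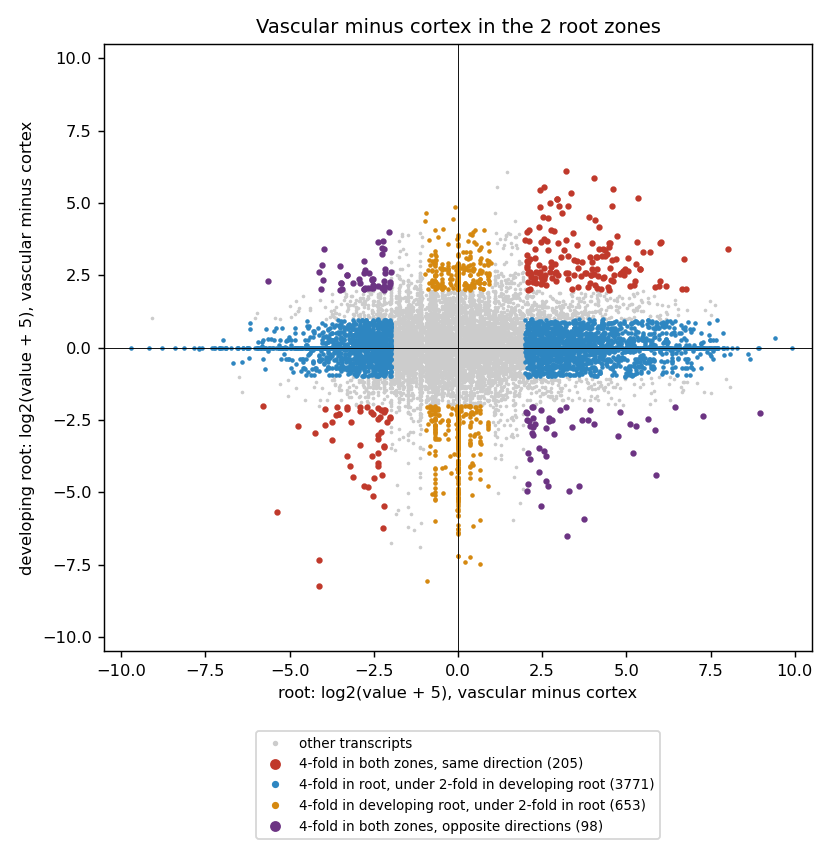
Each of the 13677 transcripts is placed by its vascular minus cortex difference on log2(value + 5) in the root (horizontal) and in the developing root (vertical), with colours for the classes set by size. The cloud is wider along the root axis, the shared transcripts (153 and 52) lie in the upper right and lower left corners, and the 2201 and 1570 transcripts apart in the root but under 2-fold in the developing root form the horizontal arms.

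The 153 transcripts shared by the vascular libraries were moderately abundant. Their median value was 257.8 in root vascular tissue and 59.0 in developing root vascular tissue, against 11.8 in root cortex and 1.6 in developing root cortex. They took 3.61% of all reads in root vascular tissue and 3.14% in developing root vascular tissue, against 0.355% in root cortex and 0.226% in developing root cortex, so this set weighed about the same in the vascular RNA of both zones. These values chose the set and are a description. By the naming rule, which takes the largest difference in the weaker zone, isotig09874 led, with a value of 2358 in root vascular tissue against 53.3 in root cortex, and of 233 in developing root vascular tissue against 1.56, which is 1 read, in developing root cortex. The ratio of vascular tissue to cortex was 44.3 (95% counting interval 27.9 to 74.9) in the root and 149 (26.5 to 5919) in the developing root. It was not limited to vascular cells elsewhere, with 3.83 in young needle vascular tissue against 561 in young needle mesophyll. The next, isotig31164, had a value of 118 in root vascular tissue and no read in root cortex, which makes it at least 13.2-fold higher when the cortex library is set at its limit of 3 reads. Its value was 430 in developing root vascular tissue against 4.68, or 3 reads, in developing root cortex, a ratio of 91.7 (31.2 to 447). Outside the root zones it was read only in the root meristem, at 15.0, and it had no read in the other 9 libraries.

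The 52 transcripts shared by the cortex libraries were shallower. Their median value was 0 in root vascular tissue and 3.1 in developing root vascular tissue, against 42.9 in root cortex and 70.3 in developing root cortex. They took 0.008% of the reads in root vascular tissue against 0.235% in root cortex, and 0.049% in developing root vascular tissue against 1.56% in developing root cortex, so the set weighed several times more in the developing cortex than in the older cortex. The first by the rule, isotig24149, had no read in root vascular tissue against a value of 201 in root cortex, at least 47.4-fold lower at the limit of 3 reads. It had 5.18 in developing root vascular tissue against 521 in developing root cortex, a cortex to vascular ratio of 101 (42.7 to 312), and it reached 220 in the root meristem. The second, unigene27730, had 2.83, or 2 reads, in root vascular tissue against 133 in root cortex, a cortex to vascular ratio of 47.0 (12.3 to 400.2). It had 13.5 in developing root vascular tissue against 2979 in developing root cortex, a ratio of 221 (129 to 416), and also stood at 1357 in the apical meristem. With 30 or more reads required in the higher library of each zone, 104 vascular and 10 cortex transcripts were shared, so most of the cortex set rests on few reads.

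**Figure D3:**
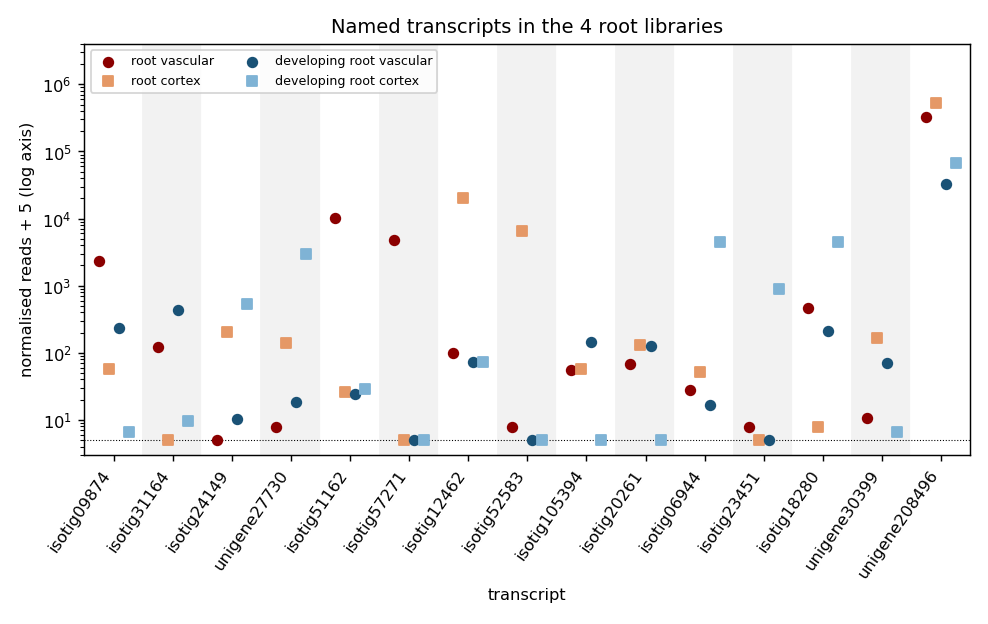
Values of the transcripts named by rule in root vascular, root cortex, developing root vascular and developing root cortex libraries, 1 point for each library, with value + 5 on a log axis and a dotted line at 5 for no reads. For the 4 shared transcripts on the left both circles (vascular) lie on the same side of both squares (cortex), and for isotig51162, isotig57271, isotig12462 and isotig52583 the developing root points lie together while the root points lie far apart.

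In limma and edgeR no transcript passed a test of vascular tissue against cortex over both zones, whereas DESeq2 passed 15. With zone as a term, limma on log2(value + 5) tested 8729 transcripts and called 0 (0.00%) at a Benjamini-Hochberg adjusted p under 0.05, with a lowest adjusted p of 0.375. At an unadjusted p under 0.05 it had 535 (6.13%), of which 371 were higher and 164 lower in vascular tissue, where 436 are given by chance. On the recovered reads, edgeR called 0 and had 253 transcripts below 0.05 before adjustment, and DESeq2 called 15 (10 higher and 5 lower in vascular tissue) and had 458 before adjustment. The limma fit leaves 1 residual degree of freedom, and an exact permutation of tissue within 2 pairs cannot give a two-sided p below 0.5. For isotig09874 the limma difference was 5.26 ± 1.17 (SE, n = 2 against 2 libraries) with an adjusted p of 0.375, and higher in vascular tissue in both zones. For unigene27730 it was -5.74 ± 1.28 (SE, n = 2 against 2 libraries) with an adjusted p of 0.375 by limma, and lower in both. DESeq2 gave these transcripts adjusted p-values of 0.0112 and 0.00481, the lowest over the alternatives tried, of which the highest was 1 for each. Regardless of size, both vascular libraries lay above both cortex libraries for 1112 of the 8729 transcripts (12.7%), and below both for 921 (10.6%).

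One transcript with a small difference in both zones took a large part of the RNA, and was chosen for that after its values were seen. It is unigene208496, with 14.9% of the reads in root vascular tissue against 31.0% in root cortex, and 4.56% in developing root vascular tissue against 8.05% in developing root cortex. The ratio of vascular tissue to cortex was 0.610 (0.606 to 0.614) in the root and 0.485 (0.478 to 0.492) in the developing root. It was lower in vascular tissue in both zones, by a limma difference of -0.88 ± 0.22 (SE) with an adjusted p of 0.375. That adjusted p lay between 0.00485, with a pseudocount of 25, and 1 over the alternatives. The difference was 0 under quantile normalisation, where the transcript ranks first in each library. It turned to 0.62 without the root cortex library and to 0.78 without the developing root vascular library in fits with no term for the zone.

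Far more transcripts were apart in the older root alone. A difference of 4-fold or more in the root with less than 2-fold in the developing root was found for 2201 transcripts higher in root vascular tissue and 1570 lower there than in root cortex. These are of different kinds. On the vascular side 938 were measured in the developing root, at a value of 10 or more in at least 1 library, and 1263 were not, of which 641 had no read in either developing root library. On the cortex side 786 were measured in the developing root and 784 were not, of which 430 had no read in either library. Most transcripts were under 2-fold in the developing root, where 2207 of the 13677 were 2-fold or more higher and 1763 lower in vascular tissue. Of the 6576 measured in both zones, 68.2% were under 2-fold there. Within these, the 938 are of 1507 on the root list and the 786 of 1139, close to or below that share. The counts for the root alone thus largely follow the size of the root lists.

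Transcripts measured in both zones were at about equal levels in the developing tissues. The 938 on the vascular side had a median value of 296.0 in root vascular tissue against 14.8 in root cortex, and of 38.3 in developing root vascular tissue against 37.5 in developing root cortex. The 786 on the cortex side had a median value of 2.1 in root vascular tissue against 50.3 in root cortex, and of 36.2 in developing root vascular tissue against 35.9 in developing root cortex. On the deposited scaling, the vascular side was higher in root vascular tissue and lower in root cortex than in the developing root. The cortex side was mainly lower in root vascular tissue. These levels across zones rest on scaling factors of 0.460 in root vascular tissue, 0.584 in root cortex, 1.41 in developing root vascular tissue and 1.21 in developing root cortex. The medians are given on this scaling only. In the root meristem the median was 32.9 for the vascular side, near its developing root levels, and 55.4 for the cortex side, above its developing root levels. The equal level in the developing root and the gap between the root tissues were both part of the rule. The median of the cortex side in root vascular tissue is worth about 1 to 2 reads, so its fold is poorly fixed.

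The weight of these transcripts in the RNA of the root follows in part from the rule, since the root values chose both sets, and is a description. All 2201 on the vascular side together took 36.0% of the reads in root vascular tissue against 2.89% in root cortex, and 16.5% in developing root vascular tissue against 14.1% in developing root cortex. The 1570 on the cortex side took 0.529% of the reads in root vascular tissue against 12.2% in root cortex, and 9.43% in developing root vascular tissue against 8.41% in developing root cortex. Part of the vascular side was read nowhere else: 185 of the 2201, or 8.41%, had no read outside the 4 root libraries, against 340 of all 13677, or 2.49%. Of these, 184 were among the 1263 not measured in the developing root (14.6%). Only 1 was among the 938 measured there (0.107%), against 0.350% of the 6576 measured in both zones. The excess thus lies in transcripts that entered the set through the root libraries alone. On the cortex side 18, or 1.15%, had no read outside the 4 root libraries. Such a lack of reads was not particular to the older root, since it also held for 50 of the 382 transcripts (13.1%) lower in vascular tissue than in cortex in the developing root alone, and for 19 of the 271 (7.01%) higher there.

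The named examples show both kinds. The transcript isotig51162 had a value of 10076 in root vascular tissue against 20.7 in root cortex, and of 19.7 in developing root vascular tissue against 23.4 in developing root cortex. The ratio of vascular tissue to cortex was 486 (236 to 1209.9) in the root and 0.840 (0.405 to 1.78) in the developing root, and the highest value among the other 10 libraries was 195 in young needle mesophyll. The transcript isotig57271 had 4843 in root vascular tissue and no read in any of the other 13 libraries, at least 545-fold higher than root cortex at its limit of 3 reads. A transcript present at this level in 1 library alone has no second sample that measures it. On the cortex side, isotig12462 had 93.5 in root vascular tissue against 20130 in root cortex, and 67.3 in developing root vascular tissue against 68.7 in developing root cortex. The cortex to vascular ratio was 215 (169 to 279) in the root and 1.02 (0.680 to 1.52) in the developing root. In the shoot its direction varied, with 1143 in hypocotyl vascular tissue against 4818 in hypocotyl cortex, 1735 in cotyledon vascular tissue against 335 in cotyledon mesophyll, and 624 in young needle vascular tissue against 223 in young needle mesophyll. The last, isotig52583, had 2.83, or 2 reads, in root vascular tissue against 6533 in root cortex, a ratio of 2306 (638 to 19055), with no read in either developing root library.

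The reverse case was less frequent. A difference of 4-fold or more in the developing root with less than 2-fold in the root was found for 271 transcripts higher in developing root vascular tissue, of which 95 were measured in the root, and for 382 lower there than in developing root cortex, of which 49 were measured in the root. Fewer transcripts were under 2-fold in the root, where 4310 of the 13677 were 2-fold or more higher and 4328 lower in vascular tissue. Of the 6576 measured in both zones, 29.3% were under 2-fold in the root. Within these, the 95 are of 398 on the developing root list and the 49 of 227, below that share. Leading on the vascular side, isotig105394 had 49.6 in root vascular tissue against 53.3 in root cortex, and 142 in developing root vascular tissue with no read in developing root cortex, at least 30.3-fold higher at the limit of 3 reads. It was also read in 2 shoot vascular libraries, at 493 in young needles and 240.0 in the hypocotyl, with no read in either matching ground tissue. The other named on this side, isotig20261, had 63.7 in root vascular tissue against 127 in root cortex, and 122 in developing root vascular tissue with no read in developing root cortex, at least 26.1-fold higher. On the cortex side, isotig06944 had 22.7 in root vascular tissue against 47.4 in root cortex, and 11.4 in developing root vascular tissue against 4418 in developing root cortex, a cortex to vascular ratio of 388 (216 to 778). It stood at 154 in the root meristem. The other, isotig23451, had 2 reads in root vascular tissue against none in root cortex, and no read in developing root vascular tissue against a value of 887 in developing root cortex, at least 286-fold lower. It was otherwise read in the root meristem, at 69.1, and in none of the other 9 libraries.

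The difference between the zones itself passed the threshold for no transcript in limma or edgeR, and for 1 in DESeq2. The spread among 3 organs of the shoot, young needles, cotyledons and hypocotyl, each with a vascular and a ground tissue library, was used as the error of a vascular difference, in a limma fit of 10 libraries. Of 14979 transcripts tested, 0 (0.00%) had an adjusted p under 0.05 for root minus developing root, the lowest adjusted p was 1, and 618 (4.13%) had an unadjusted p under 0.05. By edgeR 0 were called and 44 fell below 0.05 before adjustment, and by DESeq2 the numbers were 1 and 141. For isotig51162 the difference was 8.82 ± 3.79 (SE, 1 pair against 1) and for isotig12462 it was -7.65 ± 2.73, each with a limma adjusted p of 1. Transcripts unread in the shoot have no spread there, which makes their error too small. Among 4595 transcripts that reached 10 in at least 4 of the 6 shoot libraries, limma called 0 and had 56 below 0.05 before adjustment. The lists of the older root are therefore lists by size, and a p that misses the threshold does not show that the zones act alike.

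Shoot organs were not used by the rule, and there the shared vascular set leaned to vascular tissue. In the hypocotyl, 96 of the 153 were measured, at a value of 10 or more in at least 1 of its libraries, and of these 77.1% were 2-fold or more higher in the vascular library and 8.33% 2-fold or more lower. Of the 5327 background transcripts, those measured in both root zones and in the hypocotyl, 46.1% were higher and 18.3% lower. In young needles 82 were measured, with 70.7% higher and 22.0% lower, against 55.3% and 28.6% of 4602 background transcripts. In cotyledons 59 were measured, with 57.6% higher and 27.1% lower, against 30.1% and 37.8% of 4389. The lean to vascular tissue was thus present in each of the 3 organs among measured transcripts.

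Counted over all members, unread ones included, the shares were smaller. In the hypocotyl 81 of the 153 (52.9%) were higher and 10 (6.54%) lower in vascular tissue, against 40.7% and 15.5% of the 6576. In young needles they were 39.9% and 12.4%, against 41.7% and 21.1%, and in cotyledons 24.8% and 11.8%, against 21.5% and 27.3%. In all 3 shoot organs, 20 of the 153 (13.1%) were higher in vascular tissue, where 6.52% of the 6576 were, and 0 were lower in all 3, where 1.76% were.

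Few of the 52 shared cortex transcripts were measured in any 1 organ of the shoot, and among those measured the shares lower in vascular tissue lay above the background. In the hypocotyl 29 were measured, with 48.3% higher and 34.5% lower in vascular tissue. In young needles 21 were measured, with 52.4% higher and 47.6% lower, and in cotyledons 21, with 28.6% higher and 61.9% lower. The shares higher in vascular tissue were near the background of each organ. Counted over all 52, unread ones included, 19.2% were lower in the hypocotyl, 19.2% in young needles and 26.9% in cotyledons. Of the 6576, 15.5%, 21.1% and 27.3% were lower, so only the hypocotyl share lay above the background. In all 3 organs 5 of the 52 (9.62%) were lower, where 1.76% of the 6576 were, and the count is small.

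The sets of the older root that were measured in the developing root had no such common direction. Of the 938 on the vascular side, 774 were measured in the hypocotyl, with 50.6% higher and 11.9% lower in vascular tissue, 719 in young needles, with 52.2% and 27.5%, and 664 in cotyledons, with 27.9% and 35.2%. Of the 786 on the cortex side, 630 were measured in the hypocotyl, with 48.1% higher and 16.2% lower in vascular tissue, 509 in young needles, with 67.6% and 19.3%, and 500 in cotyledons, with 27.6% and 44.6%. No test was made of the shares in the shoot, since transcripts of 1 library are not replicates. For root organs minus shoot organs, limma over the 10 libraries called 0 of 14979 transcripts (0.00%), with a lowest adjusted p of 0.727 and 782 (5.22%) at an unadjusted p under 0.05. By edgeR 1 was called.

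**Figure D4:**
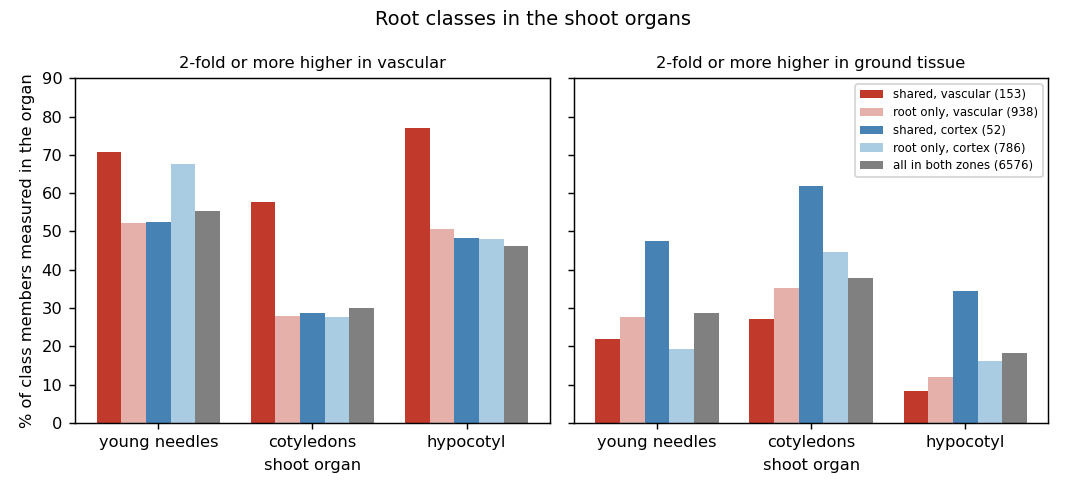
Percent of the transcripts of each class measured in an organ that were 2-fold or more higher in its vascular library (left) or 2-fold or more lower there than in its ground tissue library (right), for young needles, cotyledons and hypocotyl, with transcripts measured in both root zones as the grey background and class sizes in the legend. The shared vascular set reaches 77.1% in the hypocotyl against 46.1% of the background, and the sets of the older root stand at 50.6% (vascular side) and 48.1% (cortex side) there.

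Outside the 4 root libraries, the shared vascular transcripts were most often highest in young needle vascular tissue, with 26 of 153, where 9.90% of the 6576 were. Hypocotyl vascular tissue followed with 21 (13.7%) against 4.85%, and cotyledon vascular tissue with 19 (12.4%) against 8.67%. The root meristem was highest for 23 (15.0%) of them, against 16.8% of the 6576. For the shared cortex set it was highest for 18 of 52 (34.6%), and the apical meristem for 9 (17.3%), against 15.9% of the 6576. Reads in the root meristem were found for 73.9% of the shared vascular set and 92.3% of the shared cortex set, against 96.5% of the 6576. Of the transcripts of the older root that were not measured in the developing root, 40.1% on the vascular side and 44.8% on the cortex side had a read in the root meristem. These were chosen for low values in the developing root, whose libraries stood close to the meristem. The 6576 are no matched background for them, and the low shares are a description.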

How the data were processed

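The authors deposited 1 table of normalised signal per transcript for 14 libraries, with FastQC, BWA and edgeR named in the submitters' processing notes. Versions and parameters were not given in the sources used here. This deposited signal equals CPM divided by edgeR's TMM factor, since recomputed TMM factors differed from the deposited scale by at most 5.22e-10 in relative terms. Whole reads were recovered for 100% of the values within 0.001 read, and all 23493 transcripts had at least 4 reads over the series. The series held 12128688 reads in all, and depth limits the precision of each value as the counting intervals show.

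Differences were taken on log2(value + 5). Transcripts at 10 or more in at least 1 of the 4 root libraries were described, those at 10 or more in at least 2 were tested with limma 3.58.1 (trended, R 4.3.3), with edgeR 4.0.16 and DESeq2 1.42.0 on the recovered reads as alternatives. Classes used 4-fold in 1 zone and 2-fold as the limit in the other. Ratios carry exact 95% intervals of the reads, and shares of reads Wilson 95% intervals. The fits were tested on simulated data. There the 10-library fit of root minus developing root called too many transcripts unread in the shoot, so it was repeated on transcripts at 10 or more in 4 of 6 shoot libraries. The design expected CPM, and the same limma test was used for the signal.

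The comparison, classes, thresholds and naming rule were chosen with earlier results of these data known. Named transcripts have 30 or more reads in the higher library of the zone concerned (both zones for shared ones) and the largest difference, at most 2 per class and direction. The labels carry no replicate numbers and the pairing is by organ.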

Additional observations from a re-analysis of the deposited data

Results flagged for a closer look

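A set of transcripts had tissue differences of opposite sign in the 2 root zones. At 4-fold or more in each zone, 51 were higher in root vascular tissue and lower in developing root vascular tissue than in the matching cortex, and 47 the reverse. Among transcripts measured in both zones these are 3.38% of the 1507 higher in root vascular tissue and 4.13% of the 1139 lower there, where 3.45% of the 6576 were on the developing root list lower in vascular tissue and 6.05% on the list higher there. The count higher in root vascular tissue is thus at the background and the other below it. With 30 or more reads in the higher library of each zone the counts were 17 and 4.

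The first by rule, isotig18280, had a difference of 5.88 on the log2 scale in the root, with a value of 465 in root vascular tissue against 2.96, or 1 read, in root cortex. In the developing root it was -4.41, with 209 in developing root vascular tissue against 4543 in developing root cortex. The root minus developing root difference was 10.29 ± 2.60 (SE) with a limma adjusted p of 1, so it did not pass the test. In the other direction, unigene30399 had -3.98 in the root, with 5.67 in root vascular tissue against 163 in root cortex, and 3.42 in the developing root, with 65.2 in developing root vascular tissue against 1.56, or 1 read, in developing root cortex. Its root minus developing root difference was -7.40 ± 1.18 (SE) with a limma adjusted p of 1.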

How the results depend on the processing

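Of 216 comparative values, 153 stayed within 1.5 times or the spread of the main value. The limma difference of unigene208496 over both zones, -0.88, changed sign in fits with no organ term, to 0.62 without the root cortex library and 0.78 without the developing root vascular library, over a range of -2.54 to 0.78. The other printed differences from fits kept their sign. The balance of vascular and cortex counts was less stable: the root leaned to vascular tissue at 4-fold but stood at 3584 and 3487 with a pseudocount of 1 and at 4310 and 4328 at 2-fold, and the developing root turned to cortex with a pseudocount of 25 and at 8-fold. Counts by size moved most with the pseudocount and the fold. With a pseudocount of 1, 3584 transcripts were higher and 3487 lower in root vascular tissue than in cortex, 1573 were higher and 1239 lower in developing root vascular tissue, 477 and 271 were shared (vascular and cortex), and 449 were higher in vascular tissue in the developing root alone. With a pseudocount of 25 the counts, vascular then cortex, were 1621 and 474 in the root, 89 and 182 in the developing root, 36 and 4 shared, 1461 and 450 for the root alone and 37 and 145 for the developing root alone, and 0% of the 4 shared cortex transcripts were lower in vascular tissue in any of the 3 shoot organs. With library totals in place of the authors' factors, the shared cortex set held 33, of which 9.09% leaned the same way in the hypocotyl, and 506 were higher in vascular tissue in the developing root alone. At 2-fold the counts were 4310 and 4328 for the root, 2207 and 1763 for the developing root, 699 and 452 shared, 3240 and 3298 for the root alone, and 930 and 940 for the developing root alone. At 8-fold they were 1760 and 789, 164 and 271, 43 and 7 shared, 1367 and 656 for the root alone, and 50 and 184 for the developing root alone. An 8-fold gap between zones gave 1384 and 738 for the root alone and 68 and 186 for the developing root alone. Chosen after seeing the data, a minimum of 30 reads gave 552 for root cortex, 375 and 320 for the developing root, 10 shared on the cortex side, 458 for root cortex alone, and 146 and 187 for the developing root alone. Measured in both zones were 938 and 786 of the root alone and 95 and 49 of the developing root alone.

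The limma fit over both zones called 1 transcript with a pseudocount of 25 and 1 with library totals, unigene208496 in each case, and 1 with no filter, unigene17412. DESeq2 called 15, of which 9 are shared vascular and 3 shared cortex transcripts. Without the organ term, which is the replicate block here, the fit called 0. With that term, leaving out a library of the 4 leaves no residual degrees of freedom and was not run. In the other leave-one-out fits the calls were 0 to 3, and the 3 came without the developing root vascular library and without the organ term, where the lone root vascular library is assumed to vary like the others. For root minus developing root, no filter gave 1086 calls, of transcripts with no spread in the shoot, and DESeq2 gave 1, unigene33864. For root minus shoot organs edgeR gave 1, isotig03092. The cause of these shifts was not tested. Among the 4-fold lists of the zones, that of root cortex had the lowest median depth, at 17 reads in the higher library.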
